A study of Homo sapiens with 12 samples.

Results

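The clustered protocadherins are 53 protein-coding genes in 3 neighbouring groups on chromosome 5, with 15 genes in the alpha cluster, 16 in the beta cluster and 22 in the gamma cluster. They were taken by symbol from the 61533 gene IDs in the deposited tables, and the whole family was kept whatever the values of its members. The family was selected on the gene-level expected counts of these same libraries, so the differences of its members among the lines are given as a description, with no p-value. Total RNA was sequenced from 3 human ovarian cell lines with 4 libraries per line, 12 in all. PEO-4 is labelled ovarian cystadenocarcinoma, SKOV-3 ovarian serous cystadenocarcinoma and T1074 ovarian epithelial cells immortalized with SV40. The text of the study instead calls SKOV-3 clear cell carcinoma and PEO-4 high-grade serous carcinoma. All carry the genotype label WT, none was treated, and each type of cell is represented by 1 line grown in a medium of its own, so that line and medium cannot be told apart. The libraries of a line come from cultured cells, and whether these were separate cultures is not stated, so errors and p-values measure the spread between libraries, which may be technical. In such bulk samples, fewer cells that express a gene and less RNA per cell cannot be told apart.

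Clustered protocadherins are transmembrane adhesion proteins of the cadherin superfamily, best known in neurons, where each cell uses a small set of them and cells with matching sets recognise one another. In the alpha and gamma clusters every gene has a large variable exon with a promoter of its own, spliced to 3 constant exons shared by the whole cluster, which encode the common end of the cytoplasmic tail. The beta genes have no constant exons. The promoters of most members hold a conserved element with a CGCT core, and binding of CTCF together with cohesin loops a distant enhancer to a chosen promoter, while methylation of the promoter keeps the others silent. The C-type genes (PCDHAC1, PCDHAC2, PCDHGC3, PCDHGC4 and PCDHGC5) lie at the ends of the alpha and gamma clusters, and in neurons they are used without the random choice seen for the other members. In several cancers the clusters are known as regions of long-range DNA methylation, which was not measured here.

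In GENCODE 44 on GRCh38 the alpha cluster spans chr5:140786136-141012347, the beta cluster chr5:141051374-141249365 and the gamma cluster chr5:141330514-141512977, all on the plus strand. RefSeq promoter sequences (GRCh38.p14, 250 bases before to 50 after the start) matched 47 of the 53 members, and no entry was at hand for PCDHA3, PCDHA13, PCDHB6, PCDHB11, PCDHGA12 and PCDHGC5. The letters CGCT, on either strand, were in 12 of 13 alpha, 14 of 14 beta and 20 of 20 gamma promoters, against 68.8% of all 27305 promoters in the table. PCDHA9 was the alpha promoter without them. The letters GGNGGCAG, part of the CTCF consensus, were in 0 promoters of each cluster on either strand, against 16.2% of all promoters, which says only that these letters are not in these windows. The 8 letters found in most promoters of a cluster were looked up after the sequences were seen. They were ATGTCGCT in 9 of 13 alpha promoters (0.264% of all promoters), GTGGCGCT in 13 of 14 beta promoters (1.15%) and GCCGCTGT in 11 of 20 gamma promoters (1.57%), again on either strand, and each holds the CGCT core. They began a median of 52, 65 and 67 bases before the start in the alpha, beta and gamma promoters.

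The element is printed here, plus strand of GRCh38, for members that set the lines apart below and for PCDHGC3, whose libraries overlapped among the lines. The 8 letters of each cluster are in capitals and the bases around them in lower case.
PCDHA6, chr5:140827893-140827932: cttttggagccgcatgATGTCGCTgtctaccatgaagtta
PCDHA10, chr5:140855837-140855876: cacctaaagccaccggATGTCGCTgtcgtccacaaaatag
PCDHA12, chr5:140875240-140875279: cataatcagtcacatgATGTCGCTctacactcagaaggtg
PCDHB2, chr5:141094540-141094579: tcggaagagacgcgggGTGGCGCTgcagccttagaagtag
PCDHB15, chr5:141245310-141245349: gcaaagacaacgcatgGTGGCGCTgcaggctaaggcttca
PCDHGB4, chr5:141387615-141387654: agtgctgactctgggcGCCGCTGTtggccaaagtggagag
PCDHGB5, chr5:141397861-141397900: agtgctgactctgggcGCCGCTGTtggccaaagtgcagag
PCDHGA10, chr5:141412929-141412968: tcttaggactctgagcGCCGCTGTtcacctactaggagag
PCDHGC3, chr5:141475878-141475917: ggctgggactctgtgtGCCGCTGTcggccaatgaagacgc
Members with the same 8 letters had opposite patterns among the lines, as the values of PCDHGB5 and PCDHGA10 show. PCDHAC1 and PCDHAC2, whose windows did not hold the alpha letters, had 27 and 15 CpG dinucleotides in these windows, against a median of 7 in the alpha promoters and 13 in all promoters.

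Expected counts summed to between 19780836 and 55739060 in a library, lowest in T1074 replicate 1. The members together held 21143 to 28855 counts in the PEO-4 libraries and 18047 to 23710 in the SKOV-3 libraries, against 1755 to 5193 in the T1074 libraries. Levels of genes are compared with one another in TPM, an abundance corrected for transcript length and scaled to 1000000 in each library. Levels of one gene are compared between lines in CPM, counts scaled to a library of 1000000 with the TMM factors of edgeR. A count of 3 was taken as the floor of a library, which is 0.0576 to 0.151 CPM, and covers counting error only. As a check of the labels, the epithelial genes KRT8 and KRT18 averaged 616 ± 304 and 328 ± 161 CPM in T1074 (SD, n = 4), but EPCAM (0.0964 ± 0.0360 CPM) and CDH1 (0.354 ± 0.0830 CPM) were near 0 there.

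The 3 clusters differed in how far the lines stood apart. Summed over its 15 genes, the alpha cluster had 11.8, 15.1, 14.1 and 15.2 TPM in the PEO-4 libraries and 6.31, 6.26, 7.25 and 5.36 TPM in the SKOV-3 libraries, against 0.07, 0.53, 0.03 and 0.12 TPM in the T1074 libraries. The lines did not overlap. The 16 beta genes summed to 10.6, 15.6, 14.7 and 13.5 TPM in PEO-4 and 12.4, 12.2, 13.6 and 9.12 TPM in SKOV-3, against 0.77, 1.40, 0.42 and 0.82 TPM in T1074. PEO-4 and SKOV-3 overlapped in their beta sums, and both stood above every T1074 library. The 22 gamma genes summed to 15.9, 20.2, 19.2 and 19.9 TPM in PEO-4 and 17.7, 19.2, 20.4 and 14.4 TPM in SKOV-3, against 10.2, 16.7, 8.03 and 13.3 TPM in T1074, so that on this scale the gamma sums overlapped among all 3 lines.

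**Figure D1:**
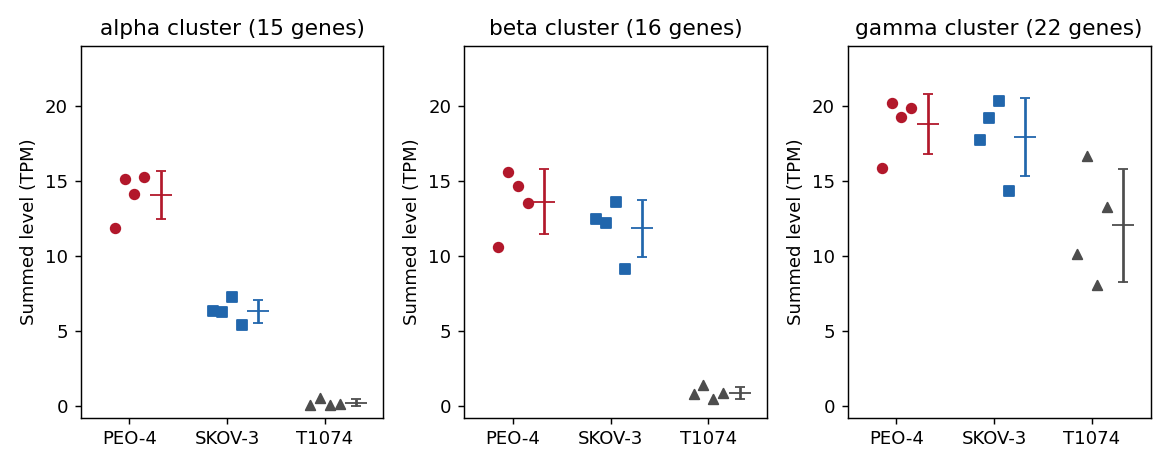
Summed TPM of the alpha, beta and gamma genes in each of the 12 libraries (points) with the mean and SD of each line (bars, n = 4). The alpha and beta sums of T1074 lie at or below 1.40 TPM, below every PEO-4 and SKOV-3 library, whereas its gamma sums reach 16.7 TPM.

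On the CPM scale the alpha sum averaged 206 ± 10.8 CPM in PEO-4 and 82.9 ± 4.84 CPM in SKOV-3, against 1.10 ± 1.12 CPM in T1074 (SD, n = 4 each), 188-fold and 75.6-fold higher. T1074 replicate 2 held 66.1% of all alpha counts of its line, 118 against 7.01, 12 and 41.6 in replicates 1, 3 and 4. Without it the T1074 mean was 0.560 ± 0.412 CPM (n = 3), which made the folds 368 and 148. The beta sum averaged 156 ± 9.84 CPM in PEO-4 and 116 ± 14 CPM in SKOV-3, against 4.96 ± 1.66 CPM in T1074, 31.5-fold and 23.3-fold higher. The gamma sum averaged 251 ± 13.4 CPM in PEO-4 and 224 ± 21.5 CPM in SKOV-3, against 98.7 ± 19.2 CPM in T1074, 2.54-fold and 2.27-fold higher. In CPM every PEO-4 and SKOV-3 library had a higher gamma sum than every T1074 library, unlike in TPM. In TPM the same folds over T1074 were smaller, 75 and 33.6 for alpha, 16 and 13.9 for beta, and 1.56 and 1.49 for gamma. These are low levels overall. The median of 15032 tested protein-coding genes was 1.86 TPM in PEO-4, 2.48 TPM in SKOV-3 and 3.98 TPM in T1074, and the highest member lay above 67.0%, 59.97% and 43.6% of these genes in the same lines.

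All 53 members passed the filter on low counts. In the edgeR fit of all 12 libraries, with adjusted p under 0.05 as the call, 36.3% of the 19898 genes tested were higher in PEO-4 than in T1074 and 37.8% were lower. Of the members, 15 of 15 alpha, 14 of 16 beta and 17 of 22 gamma genes were called higher in PEO-4 than in T1074, and 0, 1 and 3 were called lower. In SKOV-3 against T1074, 33.3% of all genes were higher and 34.5% lower, and 14 alpha, 16 beta and 12 gamma members were called higher and 0, 0 and 4 lower. In PEO-4 against SKOV-3, 38.5% of all genes were higher and 36.7% lower, and 10 alpha, 7 beta and 9 gamma members were called higher and 3, 2 and 6 lower. The family was proposed from these same contrasts, so nothing is read from the counts. The median log2 fold change of the alpha, beta and gamma members was 6.63, 5.38 and 1.24 for PEO-4 over T1074 and 4.57, 4.77 and 1.45 for SKOV-3 over T1074, against -0.01 and -0.03 over all genes tested. The comparisons of PEO-4 and of SKOV-3 with T1074 share the T1074 libraries.

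**Figure D2:**
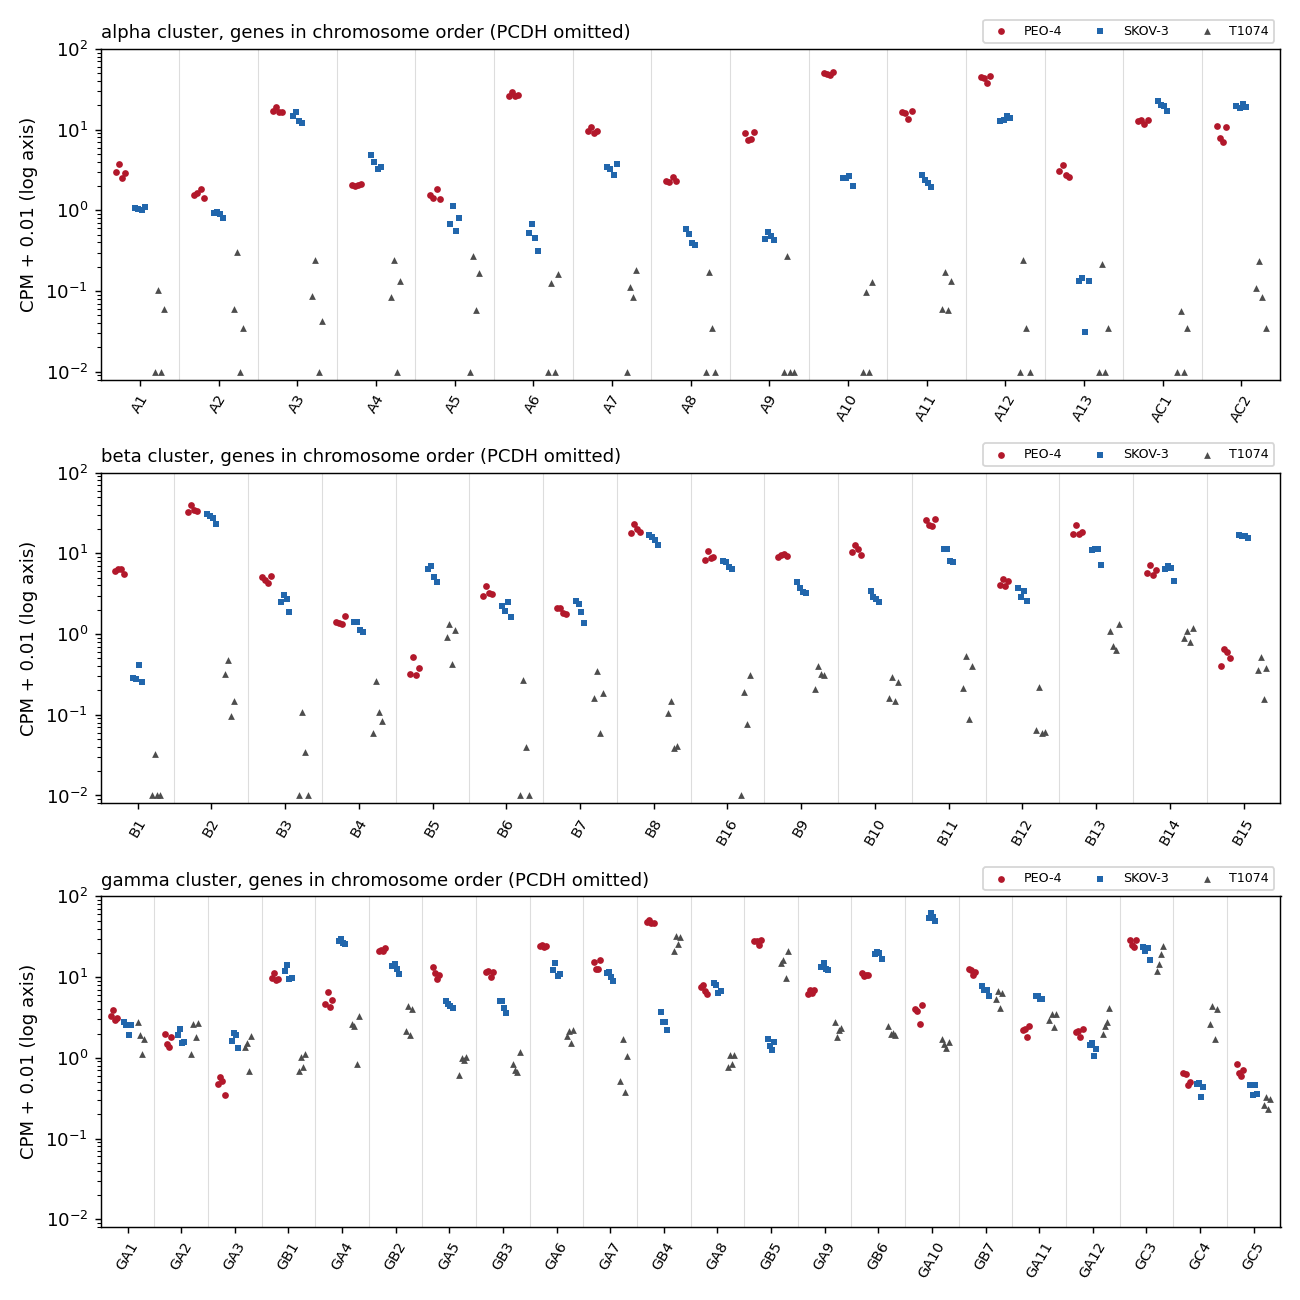
CPM + 0.01 on a log axis for the 53 members in chromosome order, with 1 point per library for PEO-4 (circles), SKOV-3 (squares) and T1074 (triangles). Points at the bottom of the alpha and beta panels are libraries at 0, and in the gamma panel no library is at 0.

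In the alpha cluster the transcripts of T1074 were at the limit of detection for nearly every gene. Of the 60 values of alpha genes in T1074 libraries, 22 were at 0 and 40 at or under 3 counts, and the highest line mean was 0.0225 TPM. PCDHA12, an alternate alpha isoform and the highest alpha gene, had 45.0, 44.1, 38.1 and 45.6 CPM in PEO-4 and 12.8, 13, 14.7 and 13.9 CPM in SKOV-3, against 0, 0.229, 0.0245 and 0 CPM in T1074. The 3 lines did not overlap, and PCDHA12 was 3.18-fold higher in PEO-4 than in SKOV-3 (log2 fold change 1.67 ± 0.23, SE). PCDHA12 made up 25.8% of the alpha TPM of PEO-4, followed by PCDHA6 (15.6%) and PCDHA11 (13.5%). In SKOV-3 the order was another one, with PCDHAC2 (23.9%), PCDHAC1 (21.6%) and PCDHA12 (19.2%) on top.

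PCDHA6, a further alternate isoform, had 26.1, 28.9, 25.8 and 26.7 CPM in PEO-4 and 0.515, 0.676, 0.448 and 0.308 CPM in SKOV-3, against 0, 0.115, 0 and 0.154 CPM in T1074. It was among the highest alpha genes of PEO-4 and among the lower ones of SKOV-3, where it still lay above every T1074 library, with a 55.0-fold difference between the cancer lines (log2 fold change 5.78 ± 0.30, SE). PCDHA11 had 16.4, 16.2, 13.4 and 17.2 CPM in PEO-4 and 2.75, 2.39, 2.14 and 1.93 CPM in SKOV-3, against 0.0502, 0.160, 0.0490 and 0.124 CPM in T1074. Its PEO-4 values were all above its SKOV-3 values, by 6.87-fold. PCDHA10, named after its values were seen, had the highest alpha CPM of any library, with 49.7, 49.4, 47.3 and 51.8 CPM in PEO-4 and 2.49, 2.49, 2.64 and 1.98 CPM in SKOV-3, against 0, 0.0877, 0 and 0.121 CPM in T1074. Most of its PEO-4 counts lay on 1 long single-exon transcript model of 12358 bases, so its TPM mean of 1.5 ± 0.18 was below that of PCDHA12 (3.62 ± 0.33).

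The C-type alpha genes ran the other way between the cancer lines. PCDHAC1 had 12.7, 13.2, 11.7 and 13.2 CPM in PEO-4 and 22.8, 20.1, 19.7 and 16.8 CPM in SKOV-3, against 0, 0.0458, 0 and 0.0249 CPM in T1074. With 3 counts in all 4 T1074 libraries together, the ratio to T1074 was 613 for PEO-4 (exact 95% counting interval 209 to 2970) and 959 for SKOV-3 (328 to 4650). PCDHAC2 had 10.9, 7.83, 6.96 and 10.8 CPM in PEO-4 and 19.8, 18.4, 20.6 and 18.9 CPM in SKOV-3, against 0.10, 0.222, 0.0735 and 0.0249 CPM in T1074. Both genes were lower in every PEO-4 library than in every SKOV-3 library, by log2 fold changes of -0.64 ± 0.15 and -1.09 ± 0.21 (SE). The only other alpha gene lower in PEO-4 without overlap was PCDHA4 (-0.91 ± 0.31), which, like PCDHA3 and PCDHA13, is named after its values were seen. The 9 remaining alpha genes averaged 1.53 CPM (PCDHA5) to 17.3 CPM (PCDHA3) in PEO-4 and 0.10 CPM (PCDHA13) to 14 CPM (PCDHA3) in SKOV-3, against 0.0353 to 0.116 CPM in T1074. PCDHA13 was the 1 alpha gene not called between SKOV-3 and T1074, with a log2 fold change of 0.55 ± 0.78 (SE) and libraries at or near the floor in both lines.

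The beta genes were low in T1074. Between PEO-4 and SKOV-3, 7 were called higher and 2 lower, and all but PCDHB1, PCDHB5 and PCDHB15 differed by less than 4-fold. PCDHB2, the highest beta gene in both cancer lines, had 32.8, 39.5, 34.1 and 33.6 CPM in PEO-4 and 30.6, 29.2, 27.6 and 23.4 CPM in SKOV-3, against 0.311, 0.464, 0.0852 and 0.138 CPM in T1074. It was higher by a log2 fold change of 7.16 ± 0.29 in PEO-4 and 6.82 ± 0.29 in SKOV-3 than in T1074, and PEO-4 and SKOV-3 differed by 0.34 ± 0.19 (SE). PCDHB8 had 18.0, 23.0, 20.0 and 18.5 CPM in PEO-4 and 16.8, 15.9, 14.6 and 12.8 CPM in SKOV-3, against 0.0943, 0.137, 0.0284 and 0.0313 CPM in T1074. PCDHB2 and PCDHB8 together with PCDHB11 made up 55.2% of the beta TPM of PEO-4.

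PCDHB11 had 26.3, 22.2, 22 and 26.9 CPM in PEO-4 and 11.4, 11.2, 7.95 and 7.73 CPM in SKOV-3, against 0.206, 0.527, 0.0796 and 0.387 CPM in T1074. PCDHB9 had 9.08, 9.50, 9.85 and 9.32 CPM in PEO-4 and 4.41, 3.73, 3.36 and 3.25 CPM in SKOV-3, against 0.201, 0.39, 0.311 and 0.303 CPM in T1074. Both were about as far apart between PEO-4 and SKOV-3, with log2 fold changes of 1.35 ± 0.24 and 1.35 ± 0.15 (SE). PCDHB13 had 17.6, 22.2, 17.3 and 18.4 CPM in PEO-4 and 11, 11.2, 11.4 and 7.24 CPM in SKOV-3, against 1.08, 0.699, 0.623 and 1.33 CPM in T1074. It was among the few beta genes near or above 1 CPM in T1074, where PCDHB5 (24%), PCDHB14 (17.9%) and PCDHB13 (10.6%) made up most of the beta TPM.

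Single beta genes departed from their neighbours, and the next 3 were named after their values were seen. PCDHB15, the last beta gene, had 0.387, 0.635, 0.582 and 0.502 CPM in PEO-4 and 16.8, 16.3, 16.6 and 15.3 CPM in SKOV-3, against 0.353, 0.513, 0.147 and 0.373 CPM in T1074. PEO-4 was thus at the level of T1074, and the log2 fold change of PEO-4 over SKOV-3 was -4.94 ± 0.24 (SE). PCDHB5 had 0.312, 0.511, 0.303 and 0.368 CPM in PEO-4 and 6.40, 6.97, 5.07 and 4.45 CPM in SKOV-3, against 0.901, 1.31, 0.416 and 1.12 CPM in T1074. It was the 1 beta gene called lower in PEO-4 than in T1074 (log2 fold change -1.32 ± 0.34), although its lowest T1074 library fell within the range of PEO-4. PCDHB1, the first beta gene, which lies apart from the others, had 6.0, 6.39, 6.34 and 5.51 CPM in PEO-4 and 0.273, 0.269, 0.407 and 0.246 CPM in SKOV-3, against 0, 0.0229, 0 and 0 CPM in T1074. PEO-4 stood 20.2-fold above SKOV-3, and with 1 count in the T1074 libraries together the ratio of SKOV-3 to T1074 was 42.9 (exact 95% counting interval 7.41 to 1720). The 8 remaining beta genes averaged 1.45 CPM (PCDHB4) to 10.9 CPM (PCDHB10) in PEO-4 and 1.25 CPM (PCDHB4) to 7.22 CPM (PCDHB16) in SKOV-3, against 0.0308 CPM (PCDHB3) to 0.986 CPM (PCDHB14) in T1074.

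In the gamma cluster 3 genes averaged at least 1 TPM in T1074, all below the median of 3.98 TPM of tested protein-coding genes there. The order of the lines differed from gene to gene. PCDHGB4, a B-type gamma isoform, had 48.8, 50.4, 46.2 and 47.1 CPM in PEO-4 and 3.65, 2.74, 2.75 and 2.19 CPM in SKOV-3, against 21.3, 32.4, 25.7 and 31.6 CPM in T1074. PEO-4 was the high line and SKOV-3 the low one, with no overlap and log2 fold changes over T1074 of 0.79 ± 0.15 in PEO-4 and -3.29 ± 0.17 in SKOV-3 (SE). PCDHGB5 had 27.7, 27.8, 24.9 and 29.1 CPM in PEO-4 and 1.71, 1.41, 1.24 and 1.55 CPM in SKOV-3, against 14.8, 16.4, 9.85 and 20.9 CPM in T1074. Its lines had the same order as for PCDHGB4, with log2 fold changes over T1074 of 0.82 ± 0.18 in PEO-4 and -3.39 ± 0.21 in SKOV-3. In TPM, which is scaled otherwise, the means in PEO-4 and T1074 lay within the spread of the T1074 libraries, at 2.86 ± 0.35 and 2.88 ± 1.06 for PCDHGB4 and 2.29 ± 0.23 and 1.99 ± 0.72 for PCDHGB5.

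PCDHGA10, an A-type gamma isoform between PCDHGB6 and PCDHGB7, had 4.02, 3.74, 2.64 and 4.50 CPM in PEO-4 and 54.2, 61.9, 56.3 and 49.1 CPM in SKOV-3, against 1.68, 1.46, 1.33 and 1.57 CPM in T1074. It held 21.4% of the gamma TPM of SKOV-3, and was 37.1-fold higher there than in T1074 (log2 fold change 5.21 ± 0.17, SE). PCDHGA4, named after its values were seen, held a further 13.9%, with 4.66, 6.60, 4.22 and 5.14 CPM in PEO-4 and 27.7, 29.7, 26.4 and 25.4 CPM in SKOV-3, against 2.59, 2.46, 0.833 and 3.33 CPM in T1074. PCDHGB2 had 21.2, 21.5, 21.1 and 22.8 CPM in PEO-4 and 13.8, 14.5, 12.6 and 11 CPM in SKOV-3, against 2.16, 4.38, 1.92 and 3.98 CPM in T1074. All PCDHGB2 libraries of PEO-4 and SKOV-3 lay above those of T1074, by log2 fold changes of 2.78 ± 0.23 and 2.04 ± 0.22.

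The C-type gamma genes had 3 different patterns. PCDHGC3 had 29.0, 25.3, 23.4 and 29.1 CPM in PEO-4 and 23.8, 21, 22.7 and 16.2 CPM in SKOV-3, against 12.1, 14.3, 19.2 and 24.6 CPM in T1074. The log2 fold change over T1074 was 0.60 ± 0.19 in PEO-4, where the gene was among those called higher, and 0.25 ± 0.19 in SKOV-3 (SE), and T1074 overlapped with both lines. In TPM the means were 2.02 ± 0.22 in PEO-4 and 1.64 ± 0.37 in SKOV-3, against 2.15 ± 0.50 in T1074. PCDHGC4 was highest in T1074, with 0.644, 0.627, 0.451 and 0.497 CPM in PEO-4 and 0.468, 0.480, 0.321 and 0.430 CPM in SKOV-3, against 2.6, 4.40, 1.69 and 4.04 CPM in T1074. Its log2 fold changes over T1074 were -2.53 ± 0.31 in PEO-4 and -2.90 ± 0.31 in SKOV-3 (SE). PCDHGC5 was low in all lines, with 0.838, 0.631, 0.580 and 0.692 CPM in PEO-4 and 0.448, 0.333, 0.451 and 0.348 CPM in SKOV-3, against 0.251, 0.321, 0.220 and 0.298 CPM in T1074. The 14 remaining gamma genes averaged 0.469 CPM (PCDHGA3) to 24.2 CPM (PCDHGA6) in PEO-4 and 1.31 CPM (PCDHGA12) to 19.2 CPM (PCDHGB6) in SKOV-3, against 0.841 CPM (PCDHGB3) to 5.64 CPM (PCDHGB7) in T1074. The 3 gamma genes called lower in PEO-4 than in T1074 were PCDHGC4, PCDHGA3 (log2 fold change -1.51 ± 0.31, SE) and PCDHGA11 (-0.50 ± 0.17), and the 4 called lower in SKOV-3 were PCDHGB4, PCDHGB5, PCDHGC4 and PCDHGA12 (-1.12 ± 0.23).

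Between the cancer lines the beta and gamma sums were closer than the alpha sum, and single genes differed by more than the sums. The alpha sum was 2.49-fold higher in PEO-4 than in SKOV-3 in CPM and 2.23-fold higher in TPM, the beta sum 1.35-fold and 1.15-fold, and the gamma sum 1.12-fold and 1.05-fold. At least 4-fold differences were found for 6 alpha genes (PCDHA6, PCDHA8, PCDHA9, PCDHA10, PCDHA11 and PCDHA13), 1 beta gene (PCDHB1) and 2 gamma genes (PCDHGB4 and PCDHGB5) in favour of PEO-4, and for 0 alpha, 2 beta (PCDHB5 and PCDHB15) and 2 gamma genes (PCDHGA4 and PCDHGA10) in favour of SKOV-3. By line means in CPM, 12 alpha, 12 beta and 11 gamma genes were highest in PEO-4, 3, 4 and 8 in SKOV-3, and 0, 0 and 3 in T1074. The shares of all genes past this 4-fold limit or highest in each line are not given here, so nothing is read from these counts.

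**Figure D3:**
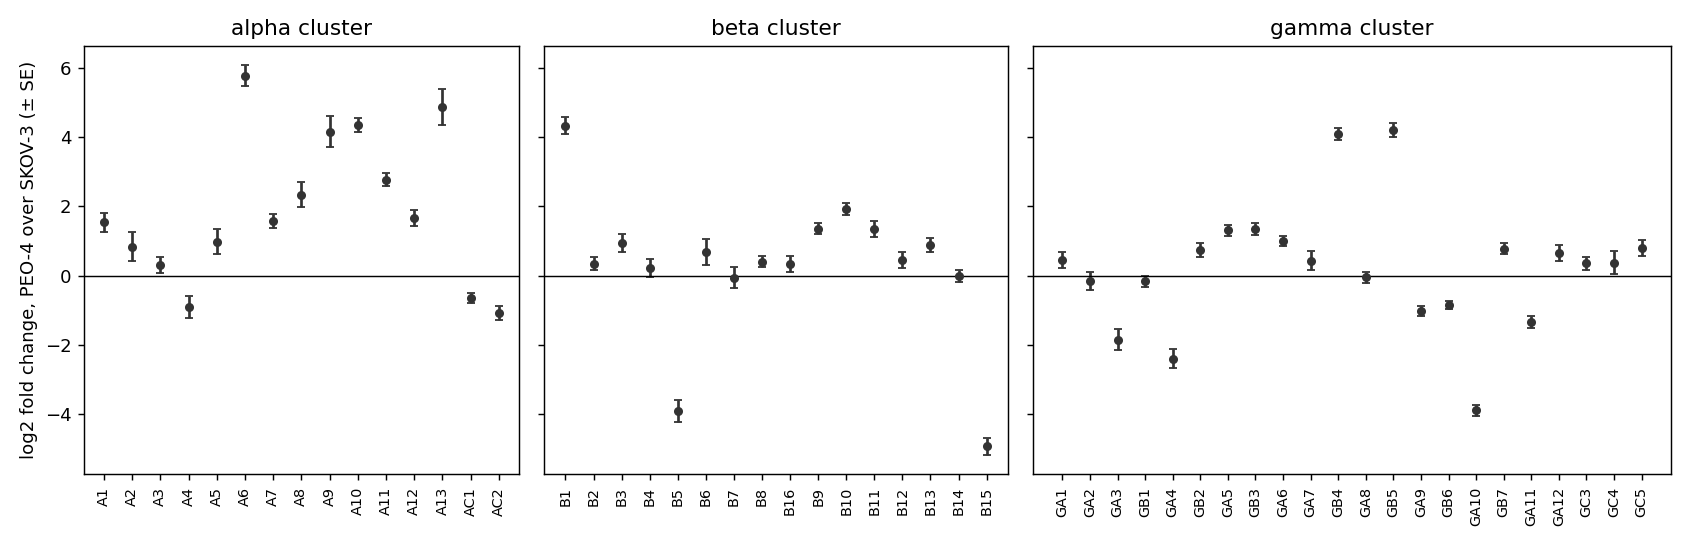
Log2 fold change of PEO-4 over SKOV-3 with its SE for each member, in chromosome order within the alpha, beta and gamma clusters. Large positive values (PCDHA6 at 5.78, PCDHGB5 at 4.21) and large negative values (PCDHB15 at -4.94, PCDHGA10 at -3.90) stand beside genes near 0.

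The gene-level values rest on reads that members share. For each member, 75-base stretches of its GENCODE 44 transcripts, the length of a read, were looked up in all other clustered protocadherin genes and pseudogenes. The share found in no other gene was 40.6% to 78.6% for alpha genes, 65.5% to 100% for beta genes and 30.7% to 70.4% for gamma genes, lowest for PCDHGB4. The remaining reads were divided among genes by the estimate of RSEM, so values much lower than those of a neighbour are uncertain. This concerns alpha and gamma genes and, among beta genes, mostly PCDHB8 (65.5%) and PCDHB10 (71.0%).

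The deposited estimates also tell apart transcripts that carry the 3 constant exons from those that do not. The first constant exon of the 2 clusters is of the same length, 59 bases, and the alpha and gamma versions have the same letter at 39 positions (66.1%), given in capitals here because this is the stretch from which the shared tail of each cluster begins.
Alpha, chr5:140978949-140979007: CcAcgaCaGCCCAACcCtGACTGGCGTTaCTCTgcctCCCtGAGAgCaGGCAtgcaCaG
Gamma, chr5:141494807-141494865: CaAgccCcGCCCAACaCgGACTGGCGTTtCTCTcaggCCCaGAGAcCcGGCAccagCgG
Together the 3 constant exons make up 53.2% of the length of a typical alpha transcript of 4 exons and 45.6% of a gamma one. In the alpha cluster, transcripts with all 3 constant exons held a share of 35.3% ± 0.683 of the expected counts in PEO-4, and of 57.3% ± 2.04 for SKOV-3 (SD, n = 4 each), and in T1074 the share was 0% to 36.1% over 179 counts in all. In the gamma cluster they held 47.6% ± 1.44 in PEO-4 and 74.7% ± 1.57 in SKOV-3, against 62.3% ± 5.77 in T1074. In both clusters every PEO-4 library was below every SKOV-3 library.

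**Figure D4:**
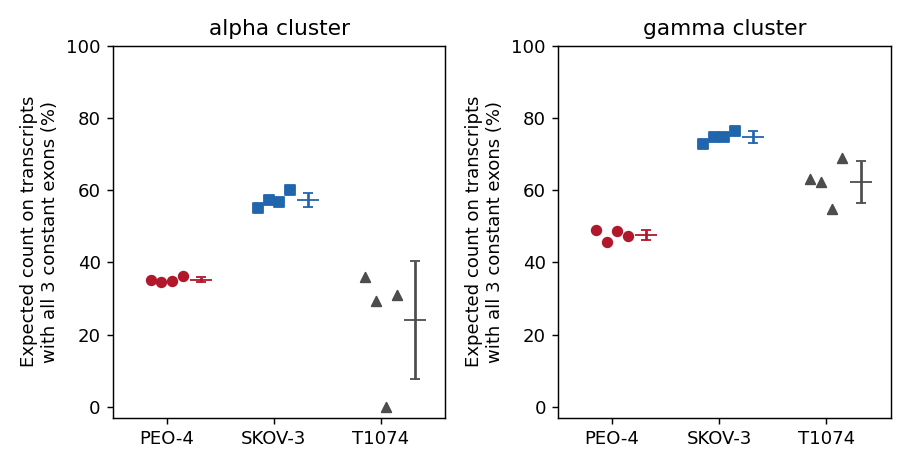
Percentage of the expected counts of the alpha and gamma clusters that RSEM placed on transcripts with all 3 constant exons, for each library (points) with the mean and SD of each line (bars, n = 4). The PEO-4 shares lie at 34.7% to 36.2% for alpha and 45.8% to 48.9% for gamma, below the SKOV-3 shares of 55.2% to 60.1% and 72.7% to 76.5%.

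The other counts lay nearly all on single-exon models of the variable exon with sequence that follows it, at 64.7% ± 0.757 of alpha counts in PEO-4 and 41.9% ± 2.47 in SKOV-3. The share differed between genes. PCDHGC3 transcripts had the constant exons for 81.7% ± 4.84 of counts in PEO-4 and 93.0% ± 0.901 in SKOV-3, against 89.7% ± 10.6 in T1074. For PCDHGA10 the share was 23.9% ± 9.77 in PEO-4, where the gene was low, and 92.5% ± 0.676 in SKOV-3, where it was high, against 53.7% ± 11.8 in T1074. For PCDHA10 it was 23.3% ± 2.77 in PEO-4 and 3.41% ± 2.67 in SKOV-3, the reverse of the order for the cluster. For PCDHGB5 it was likewise higher in PEO-4, at 51.0% ± 4.37 against 20.9% ± 12.4 in SKOV-3. PCDHAC1 had 50.1% ± 7.08 in PEO-4 and 49.2% ± 6.72 in SKOV-3. In these estimates the order of the cluster shares thus does not hold for every gene. Reads within the constant exons match every gene of a cluster, so RSEM divided them among the genes, and shares of single genes depend on that division. The SKOV-3 shares of PCDHA10 and PCDHGB5 rest on 477 and 294 counts of these genes in all. The libraries were made from rRNA-depleted total RNA, which keeps unspliced RNA, and the part of unspliced RNA in these shares was not tested.

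Other transcribed features lie within the 3 clusters. Of 22 annotated lncRNA genes there, 14 on the opposite strand, 17 had 0 counts in all T1074 libraries, and 15 of these had counts in PEO-4 or SKOV-3. T1074 had the smallest libraries, and the same share over all lncRNA genes is not given here. Some of the 15 rest on few counts, such as ENSG00000279028 with 2 in PEO-4 and 0 in SKOV-3. PCDHB1-AS1, an RNA antisense to the start of the beta cluster, had 289, 441, 522 and 469 counts in PEO-4 and 553, 475, 412 and 360 in SKOV-3, against 0, 0, 0.520 and 4.44 in T1074. The kit kept the strand, but whether the counting used it is not stated, so reads of these genes and of the members they overlap may not have been told apart. Among the 6 clustered protocadherin pseudogenes, PCDHB18P and PCDHB19P, which lie just before PCDHB15, were higher in SKOV-3. PCDHB18P averaged 0.453 ± 0.168 CPM in PEO-4 and 3.41 ± 0.564 CPM in SKOV-3, against 0.307 ± 0.129 CPM in T1074. PEO-4 over SKOV-3 gave a log2 fold change of -2.92 ± 0.31 (SE). PCDHB17P was higher in PEO-4, at 6.37 ± 0.737 CPM in PEO-4 and 0.144 ± 0.0489 CPM in SKOV-3, against 0.0562 ± 0.0700 CPM in T1074. Its log2 fold change of PEO-4 over SKOV-3 was 5.47 ± 0.39 (SE). PCDHA14, a pseudogene in the alpha cluster, was likewise higher in PEO-4, at 2.61 ± 0.456 CPM in PEO-4 and 0.118 ± 0.0634 CPM in SKOV-3, against 0.0143 ± 0.0172 CPM in T1074. PCDHGB8P and PCDHGB9P, in the gamma cluster, were higher in both cancer lines than in T1074. Their log2 fold changes over T1074 were 2.56 and 2.13 in PEO-4 and 2.00 and 1.23 in SKOV-3. The 6 pseudogenes were named after their values were seen, so no p-value is given for them. They can share reads with the members beside them. PCDHA14 lies on the same strand as PCDHA10 and within 12358 bases of its start. That is the length of the single-exon model with most PCDHA10 counts in PEO-4, so the counts of PCDHA14 and PCDHA10 may not be separate.

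Genes within 1 Mb of the clusters moved in both directions, as did all genes tested. Of all 19898 genes, 36.3% were higher and 37.8% lower in PEO-4 than in T1074. These shares were 33.3% and 34.5% in SKOV-3 against T1074, and 38.5% and 36.7% in PEO-4 against SKOV-3. The counts for this list and the lists that follow stand beside these shares. Of 38 protein-coding neighbours, 34 were tested, and 10 rose and 16 fell in PEO-4 against T1074, with a median log2 fold change of -0.01, while 8 rose and 14 fell in SKOV-3 against T1074, with a median of -0.09. TAF7, a subunit of the general transcription factor TFIID that lies between the beta and gamma clusters, averaged 146 ± 8.29 CPM in PEO-4 and 120 ± 11 CPM in SKOV-3, against 107 ± 12.4 CPM in T1074. Its log2 fold change over T1074 was 0.45 ± 0.10 in PEO-4 (SE, edgeR adjusted p = 0.00127) and 0.17 ± 0.10 in SKOV-3 (edgeR adjusted p = 0.159). SLC25A2, a mitochondrial carrier gene beside it, was at mean levels of 0.194 CPM in PEO-4 and 0.0354 CPM in SKOV-3, against 0.0808 CPM in T1074, and was not tested. ZMAT2, which precedes the alpha cluster, had 14.9 ± 0.835 CPM in PEO-4 and 16.5 ± 2.27 CPM in SKOV-3, against 14.2 ± 3.06 CPM in T1074. DIAPH1, an actin-nucleating formin that follows the gamma cluster, had 151 ± 7.92 CPM in PEO-4 and 116 ± 2.32 CPM in SKOV-3, against 137 ± 13 CPM in T1074. The other tested genes nearest to the cluster edges (DND1, HARS1, HARS2, HDAC3, RELL2 and FCHSD1) had log2 fold changes over T1074 between -1.54 (RELL2) and 0.60 (HARS2) in PEO-4 and between -1.71 (DND1) and 0.63 (HARS2) in SKOV-3. The largest differences from T1074 among the tested neighbours were those of CD14, a receptor for lipopolysaccharide (log2 fold change -5.83 ± 0.48 in SKOV-3, edgeR adjusted p = 8.78e-08), and of EIF4EBP3, a translation repressor (4.72 ± 0.42 in PEO-4, edgeR adjusted p = 1.22e-07).

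**Figure D5:**
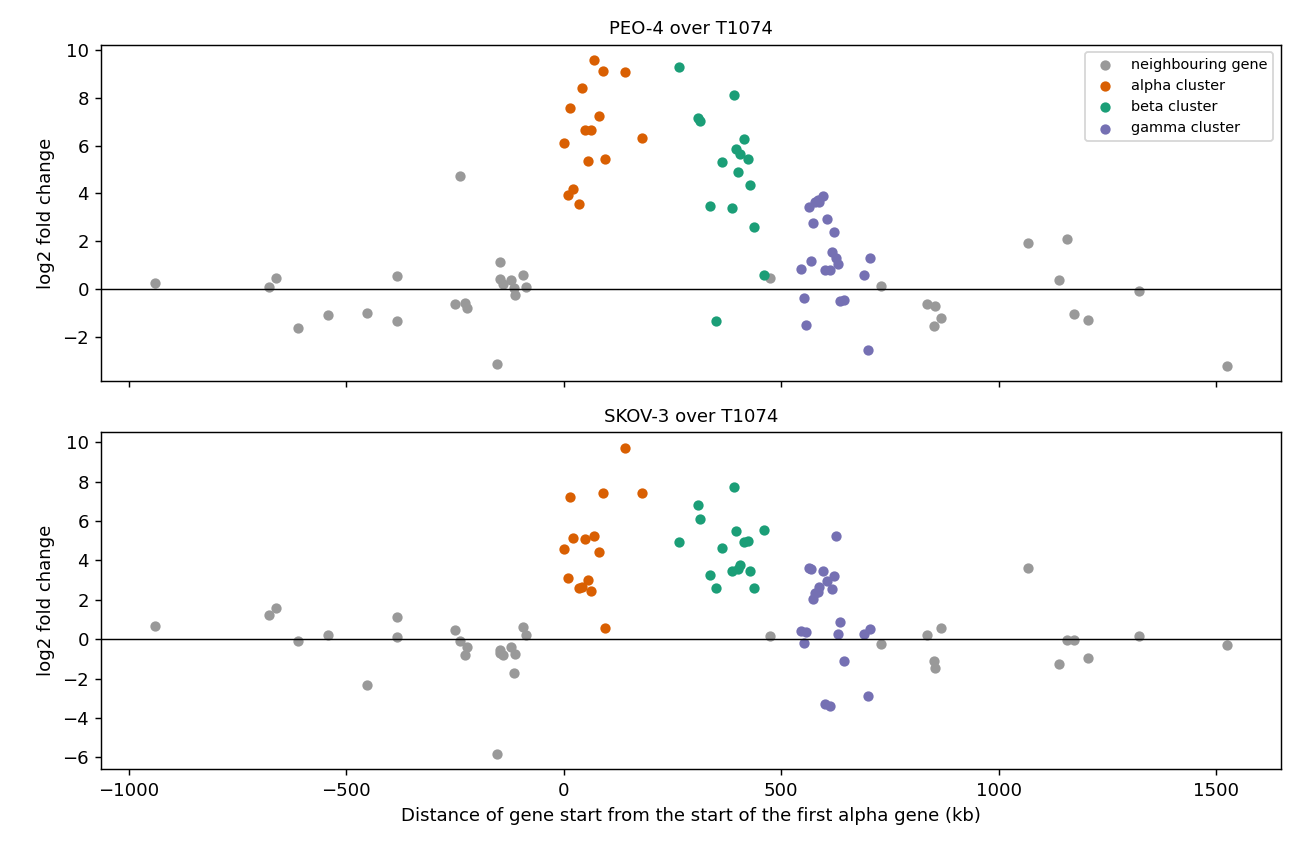
Log2 fold change over T1074 in PEO-4 (above) and SKOV-3 (below) for the 53 members and the 34 tested neighbours, by distance of the gene start from that of the first alpha gene. Alpha and beta members lie mostly well above 0, up to 9.58 in PEO-4 for PCDHA10 and 9.71 in SKOV-3 for PCDHAC1, while the neighbours on both sides scatter around 0.

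The genes known to act on these promoters likewise moved in both directions, as did all genes tested, at the shares given above. Of 13 tested CTCF and cohesin genes, 2 rose and 6 fell in PEO-4 against T1074, 3 rose and 6 fell in SKOV-3 against T1074, and 5 rose and 5 fell in PEO-4 against SKOV-3. CTCF averaged 40.8 ± 3.73 CPM in PEO-4 and 82.7 ± 2.67 CPM in SKOV-3, against 73.7 ± 13.9 CPM in T1074. It fell in PEO-4 (log2 fold change -0.85 ± 0.13, SE, edgeR adjusted p = 3.19e-05), and the change in SKOV-3 was 0.17 ± 0.13 (edgeR adjusted p = 0.261). RAD21, the cohesin kleisin subunit, averaged 532 ± 22.7 CPM in PEO-4 and 166 ± 11.2 CPM in SKOV-3, against 227 ± 11.9 CPM in T1074, which gave log2 fold changes of 1.23 ± 0.09 in PEO-4 (edgeR adjusted p = 2.58e-08) and -0.45 ± 0.09 in SKOV-3 (edgeR adjusted p = 0.00055). SMC1A and SMC3, the ring subunits of cohesin, fell in both cancer lines. SMC1A had log2 fold changes of -1.83 ± 0.15 in PEO-4 and -1.17 ± 0.15 in SKOV-3 (edgeR adjusted p = 5.45e-08 and 5.96e-06), and SMC3 of -1.14 ± 0.16 and -1.13 ± 0.16 (edgeR adjusted p = 1.75e-05 and 2.26e-05). NIPBL, which loads cohesin, fell in PEO-4 to 60.3 ± 4.33 CPM and rose in SKOV-3 to 132 ± 6.12 CPM, against 103 ± 8.51 CPM in T1074 (edgeR adjusted p = 3.31e-06 and 0.00329).

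Of 20 DNA methylation and silencing genes, 4 rose and 9 fell in PEO-4 against T1074, 7 rose and 6 fell in SKOV-3 against T1074, and 4 rose and 9 fell in PEO-4 against SKOV-3. DNMT3B, which sets new DNA methylation and in mouse methylates these promoters, averaged 2.44 ± 0.990 CPM in PEO-4 and 49.3 ± 5.20 CPM in SKOV-3, against 8.20 ± 2.37 CPM in T1074. Its log2 fold change over T1074 was -1.74 ± 0.27 in PEO-4 (edgeR adjusted p = 4.15e-05) and 2.59 ± 0.26 in SKOV-3 (edgeR adjusted p = 7.23e-07). UHRF1, which guides maintenance methylation, fell in both, at 12 ± 4.44 CPM in PEO-4 and 19.1 ± 7.53 CPM in SKOV-3, against 153 ± 49.0 CPM in T1074 (edgeR adjusted p = 1.41e-07 and 1.12e-06). LRIF1, a partner of SMCHD1, was 4.58-fold lower in PEO-4 than in SKOV-3 (log2 fold change -2.20 ± 0.14, edgeR adjusted p = 4.23e-09). ATF7IP, a partner of the histone methyltransferase SETDB1, averaged 75 ± 2.85 CPM in PEO-4 and 8.95 ± 0.458 CPM in SKOV-3, against 68.5 ± 11.4 CPM in T1074, and fell in SKOV-3 (log2 fold change -2.93 ± 0.12, edgeR adjusted p = 6.65e-11). DNA methylation was not measured in these libraries, and the part of these genes in the levels of the members was not tested.

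Of 20 genes for partners of the clustered protocadherins, 5 rose and 5 fell in PEO-4 against T1074, 12 rose and 5 fell in SKOV-3 against T1074, and 3 rose and 10 fell in PEO-4 against SKOV-3. PTK2B, which encodes the kinase PYK2 that binds the shared cytoplasmic tail, was at 36.4 ± 2.44 CPM in PEO-4 and 1.94 ± 0.409 CPM in SKOV-3, against 56.6 ± 9.54 CPM in T1074. Its log2 fold change in SKOV-3 was -4.87 ± 0.17 (edgeR adjusted p = 1.99e-11). CYFIP2, a subunit of the WAVE complex that drives actin branching, rose to 58.6 ± 6.06 CPM in PEO-4 and 75.6 ± 12.9 CPM in SKOV-3, against 3.08 ± 0.347 CPM in T1074 (edgeR adjusted p = 1.7e-11 and 1.18e-11). RET, a receptor tyrosine kinase reported to complex with alpha and gamma members, rose in SKOV-3 (log2 fold change 2.54 ± 0.18, edgeR adjusted p = 2.23e-08). PSEN2, a catalytic subunit of the gamma-secretase that cuts these proteins, fell in PEO-4 and rose in SKOV-3, with log2 fold changes of -1.20 ± 0.13 and 1.14 ± 0.12 (edgeR adjusted p = 8.71e-07 and 1.49e-06).

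The non-clustered protocadherins, which are encoded elsewhere or singly, differed from gene to gene. Of 10 tested, 6 rose and 2 fell in PEO-4 against T1074, 5 rose and 4 fell in SKOV-3 against T1074, and 4 rose and 4 fell in PEO-4 against SKOV-3. PCDH10 had the reverse of the alpha pattern, at 0.235 ± 0.0279 CPM in PEO-4 and 0.628 ± 0.232 CPM in SKOV-3, against 13.1 ± 3.26 CPM in T1074 (log2 fold changes -5.77 ± 0.30 and -4.37 ± 0.26, edgeR adjusted p = 4.93e-10 and 3.56e-09). PCDH7 was at 34.0 ± 2.59 CPM in PEO-4 and 1.13 ± 0.451 CPM in SKOV-3, against 12.2 ± 5.78 CPM in T1074. PCDH11X was at 23.4 ± 8.72 CPM in SKOV-3, at 0 in PEO-4 and at 0.0115 ± 0.0229 CPM in T1074. PCDH17 was at 1.83 ± 0.598 CPM in PEO-4 and 2.6 ± 0.692 CPM in SKOV-3, against 0.0356 ± 0.0411 CPM in T1074. Like most alpha and beta members, PCDH17, PCDH1 and PCDH19 were called higher in both cancer lines, whereas PCDH10 and PCDH18 were called lower in both. PCDH1 had log2 fold changes over T1074 of 1.95 in PEO-4 and 3.61 in SKOV-3. PCDH1 and PCDH12 lie within 1 Mb of the gamma cluster. PCDH1, PCDH12, PCDH18 and PCDH19 were named after their values were seen.

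Cell type markers moved along with the lines. Of 12 neuronal markers, 7 passed the filter, and their summed level was 21.7 to 27.1 CPM in PEO-4 and 64.7 to 101 CPM in SKOV-3, against 31.4 to 41.7 CPM in T1074. MAP2 and TUBB3, which encode neuronal cytoskeletal proteins, made up most of it, with MAP2 at 7.72 ± 0.341 CPM in PEO-4 and 38.5 ± 3.51 CPM in SKOV-3, against 8.62 ± 4.48 CPM in T1074. Of the 12 markers, 3, 1 and 0 were at 0 in all libraries of PEO-4, SKOV-3 and T1074. STMN2, GAP43, DCX, ELAVL3 and ELAVL4 did not pass the filter, while MAP2, TUBB3, SYN1, SNAP25, RBFOX3, SYP and NCAM1 did. Of the 7, 3 rose and 2 fell in PEO-4 against T1074, 2 rose and 1 fell in SKOV-3 against T1074, and 4 rose and 3 fell in PEO-4 against SKOV-3. Of 12 epithelial markers, 9 rose and 1 fell in PEO-4, and 8 rose and 2 fell in SKOV-3, both against T1074, and 8 rose and 1 fell in PEO-4 against SKOV-3. Their summed level was 3228 to 4582 CPM in PEO-4 and 1060 to 1962 CPM in SKOV-3, against 717 to 1946 CPM in T1074. EPCAM averaged 163 ± 4.31 CPM in PEO-4 and 24.5 ± 3.24 CPM in SKOV-3, and PAX8, a Müllerian transcription factor, 106 ± 10.9 and 92.4 ± 10.7 CPM, against 0.0951 ± 0.0774 CPM of PAX8 in T1074. ESRP1, an epithelial splicing factor, was at 313 ± 11.2 CPM in PEO-4 and 2.59 ± 0.567 CPM in SKOV-3, against 0.580 ± 0.382 CPM in T1074. Of 12 mesenchymal markers, 2 rose and 10 fell in PEO-4, and 4 rose and 7 fell in SKOV-3, both against T1074, and 2 rose and 9 fell in PEO-4 against SKOV-3. Their summed level was 84.4 to 121 CPM in PEO-4 and 2681 to 4400 CPM in SKOV-3, against 1664 to 4354 CPM in T1074, with the intermediate filament gene VIM at 0.125 ± 0.0268 CPM in PEO-4 and 1693 ± 593 CPM in SKOV-3, against 634 ± 156 CPM in T1074. ZEB1, a repressor of epithelial genes, was at 0.0849 ± 0.0339 CPM in PEO-4 and 48.0 ± 3.27 CPM in SKOV-3, against 26.2 ± 2.68 CPM in T1074. Other mesenchymal genes were highest in T1074. COL1A1, a fibrillar collagen chain, was at 0.750 ± 0.442 CPM in PEO-4 and 18.4 ± 10.2 CPM in SKOV-3, against 486 ± 295 CPM in T1074, and POSTN, a matrix protein, was at 0 in PEO-4 and at 0.889 ± 0.354 CPM in SKOV-3, against 12.5 ± 8.67 CPM in T1074. The part of these differences of cell type in the levels of the members was not tested.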

How the data were processed

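The 12 libraries of rRNA-depleted total RNA were prepared with a directional kit and sequenced as 75-base pairs. Per the labels and the study's methods, the authors used bcl2fastq 2.20.0.422, Trimmomatic 0.39, STAR 2.7.3a and RSEM 1.3.1 on hg38 with Gencode v39. The expected counts that the authors deposited per transcript are RSEM's estimates, not normalized. The TPM values that the authors deposited are scaled for length and library. The use of strand by RSEM is not given in the sources used here.

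Expected counts were summed by gene ID, 61369 of 61533 IDs matched GENCODE 44 (GRCh38), and the sums were rounded for the tests. The quasi-likelihood test of edgeR 4.0.16 in R 4.3.3 was fitted to all 12 libraries with TMM factors after filterByExpr, on 19898 genes, with Benjamini-Hochberg adjustment over all of them and a threshold of 0.05. The study's methods name DESeq2, which was run here in version 1.42.0 as an alternative. Levels are mean ± SD over the libraries of a line. The code was tested on simulated data. Depth ran from 19780836 to 55739060 expected counts. Counting intervals are exact and cover counting error only.

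The members and the gene lists were chosen with earlier results of these data known. Named genes were the 5 members per cluster with the highest TPM, the C-type genes, up to 4 genes of each other list with the largest called changes and a mean of at least 1 CPM in a line, CTCF, RAD21, and the nearest neighbours of the clusters. Members outside this rule were named after their values were seen. The lists were cluster neighbours, CTCF and cohesin, DNA methylation and silencing, protocadherin partners, non-clustered protocadherins, and epithelial, mesenchymal and neuronal markers. The alternatives were scaling by library size or RLE, other filters, a fold threshold, the replicate number as a block, fits of 8 libraries, counts from length-scaled TPM, and leaving out each library.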

Additional observations from a re-analysis of the deposited data

Results flagged for a closer look

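In each line the 4 libraries were compared for the 3 cluster sums and the 17 members named by rule, 60 groups in all. In 4 groups 1 library was far from the others, where chance alone gives about 1 in 20. The members are parts of the sums, so the groups are not independent, and nothing is read from this number. PEO-4 replicate 3 had the lowest alpha sum, 190 CPM against 210 to 214 CPM in the other PEO-4 libraries, and the lowest gamma sum, 231 CPM against 256 to 259 CPM. SKOV-3 replicate 4 had 7.24 CPM of PCDHB13 against 11 to 11.4 CPM in the other SKOV-3 libraries. T1074 replicate 2 had 0.229 CPM of PCDHA12 against 0 to 0.0245 CPM in the other T1074 libraries, which is 10 counts against 0 to 1.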

How the results depend on the processing

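Each of 42 counts and ratios was recomputed under its alternatives, which gave 801 values, of which 777 stayed within the limits (counts within 1.5 times, ratios within the spread of the libraries), 24 moved and 0 reversed. With a 2-fold minimum (log2 fold change past 1 in size) added to the call, gamma members called between PEO-4 and SKOV-3 numbered 9 instead of 15. The counts with that threshold for PEO-4 against T1074, SKOV-3 against T1074 and PEO-4 against SKOV-3 were 3, 2 and 4 for CTCF and cohesin genes instead of 8, 9 and 10, 5, 7 and 5 for silencing genes instead of 13 each, 4, 5 and 5 for partner genes instead of 10, 17 and 13, and 14, 10 and 18 for neighbours instead of 26, 22 and 29. Neuronal markers called in PEO-4 against T1074 numbered 3 instead of 5 with that threshold, and in SKOV-3 against T1074 they numbered 5 instead of 3 without the filter on low counts, where more genes are tested. In TPM the log2 ratio of the sums fell to 1.16 (alpha) and 0.203 (beta) for PEO-4 over SKOV-3, to 3.997 (beta) and 0.643 (gamma) for PEO-4 over T1074, and to 3.794 (beta) and 0.573 (gamma) for SKOV-3 over T1074. The alpha ratios to T1074 also fell in TPM, from 7.557 to 6.229 for PEO-4 and from 6.241 to 5.069 for SKOV-3. These stayed within the limits, which are wide there because the T1074 alpha sums spread widely (1.10 ± 1.12 CPM). Scaled to the total of protein-coding genes, the ratio of PEO-4 over SKOV-3 was 1.525 for alpha, 0.647 for beta and 0.371 for gamma, against 1.316, 0.436 and 0.162 in CPM. The cause was not tested. Leaving out 1 library at a time kept the log2 ratio of the alpha sums between 7.242 and 8.525 for PEO-4 over T1074 and between 5.926 and 7.209 for SKOV-3 over T1074, the upper ends without T1074 replicate 2. Scaling by library size alone shifted the median log2 fold change of all genes to -0.17 for PEO-4 and -0.23 for SKOV-3 over T1074. For genes named one by one, 3005 of 3075 values kept direction and side of the threshold and 0 reversed. The replicate numbers of the lines did not pair the libraries, since the correlation of deviations between same-numbered libraries was -0.0792 to 0.0692 over 12 pairs. With the replicate block the counts of called members stayed the same in all 9 cluster comparisons (15, 14 and 13 for alpha), partner genes in SKOV-3 against T1074 numbered 15 instead of 17, and the neighbours numbered 25, 21 and 28. Depth limits the alpha values of T1074 most, where 3 counts are 0.0687 to 0.151 CPM.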
